A study of Mus musculus with 18 samples.

Results

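The 10 genes described here belong to the cyclin D, CDK4/6 and RB1 pathway and were followed while bone marrow cells passed from granulocyte-monocyte progenitors (GMP) through pre-neutrophils (preNeu) to mature neutrophils (matNeu). They were found by symbol in the expression table: the D-type cyclins Ccnd1, Ccnd2 and Ccnd3, their kinases Cdk4 and Cdk6, the CDK inhibitors Cdkn1a, Cdkn1b, Cdkn2c and Cdkn2d, and Rb1. All 10 were among its 34896 genes, and all 10 passed the filter on low values.

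D-type cyclins bind and activate the kinases CDK4 and CDK6, and the complexes phosphorylate the RB1 protein, which otherwise holds E2F transcription factors inactive. Release of E2F lets a cell express the genes needed for DNA replication and enter S phase. INK4 proteins, here those of Cdkn2c (p18) and Cdkn2d (p19), bind CDK4 and CDK6 directly and keep cyclin D away, while the Cip/Kip proteins p21 (Cdkn1a) and p27 (Cdkn1b) bind cyclin and CDK complexes and act mainly on CDK2. GMPs and pre-neutrophils divide, and mature neutrophils have left the cell cycle for good.

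Cells were sorted from bone marrow of adult C57BL/6 mice aged 6 to 12 weeks. For RNA-seq, 3 libraries were made from each of the WT cell types (GMP, preNeu and matNeu). CHD4, the ATPase that moves nucleosomes in the NuRD complex, was mapped by ChIP-seq in WT and Gfi1-/- GMPs, from mice without the transcriptional repressor GFI1. H3K4me2, a histone mark of promoters and enhancers, was mapped in WT GMP, preNeu and matNeu cells, and open chromatin by ATAC-seq in WT preNeu and matNeu cells. Each ChIP-seq and ATAC-seq list came from 1 library, so that differences between these lists have no replicate check. No RNA of Gfi1-/- GMPs was analysed here, and the genotype was therefore not checked in the data.

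Expression values are TPM, the share of a library's transcripts that a gene holds after correction for transcript length, so that levels of different genes can be compared within a library while the read depth is unknown. In bulk samples, fewer cells that express a gene and less RNA per cell cannot be told apart. The labels do not say whether the 3 libraries of a cell type came from separate mice, and p-values then measure the spread between these libraries, which may be technical. The fields of the labels that name the cell type disagree for all 9 RNA-seq libraries, and their titles were followed. The libraries carried the markers of the stage in the title: Cd34 had 425 to 498 TPM in GMPs and at most 3.27 TPM later, Ltf had 23924 to 27605 TPM in preNeu cells, and Cxcr2 had 3027 to 3976 TPM in matNeu cells. CD34 and KIT were among the surface proteins used to sort GMPs, and CXCR2 among those used for matNeu cells, so the levels of these genes only check the sort. The 10 most abundant genes took 9.15 to 9.78% of the TPM in GMPs, 24.1 to 28.3% in preNeu cells and 12.7 to 15.9% in matNeu cells. The median log2 change of the 13061 genes tested was below 0, at −0.52 for preNeu cells against GMPs, −0.32 for matNeu against preNeu cells and −0.92 for matNeu cells against GMPs. Changes of single genes below are fitted with limma on log2(TPM + 1), with the change relative to this median beside them.

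Among the D-type cyclins, Ccnd3 rose and Ccnd1 and Ccnd2 fell on the way from GMP to preNeu cells, so that Ccnd3 made up nearly all D-type cyclin transcripts from then on. Ccnd3 had 336, 354 and 353 TPM in the GMP libraries, 1618, 1782 and 1885 TPM in preNeu cells and 962, 1306 and 1113 TPM in matNeu cells. The 3 ranges do not overlap, and the level was highest in preNeu cells. The log2 change was 2.34 ± 0.12 (SE) from GMP to preNeu cells (adjusted p = 1.66e-07), or 2.86 relative to the median gene, and −0.65 ± 0.12 from preNeu to matNeu cells (adjusted p = 7.27e-04). The second step was small, −0.33 relative to the median gene, and mean TPM in matNeu cells was still 3.24-fold that in GMPs.

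Ccnd2, another D-type cyclin of G1 phase, fell and then rose again to a lower level. It had 214, 174 and 281 TPM in GMPs, 15.7, 7.69 and 9.52 TPM in preNeu cells and 69.0, 68.4 and 73.9 TPM in matNeu cells. The preNeu libraries lie far below both other groups, and the matNeu libraries lie between. The fall to preNeu cells had a log2 change of −4.26 ± 0.24 (SE; adjusted p = 3.31e-07), −3.74 relative to the median gene, and the later rise one of 2.63 ± 0.24 (adjusted p = 3.84e-06), 2.95 relative to the median gene. Beside this rise stand 4 B cell markers, of which 2 rose (Cd79a and Ms4a1), 2 did not pass the test and none fell from preNeu to matNeu cells. The summed TPM of these markers was 25.1 to 39.7 in preNeu and 54.9 to 105 in matNeu libraries, and no marker of the 4 was listed at 0 in a matNeu library. In GMPs the sum was 78.9 to 94.5 TPM, almost all from Cd79b, while Pax5 was listed at 0 in the 3 libraries. The 4 dendritic cell markers summed to 2.19 to 5.39 TPM in preNeu and 10.02 to 17.4 TPM in matNeu libraries, but did not move together. Siglech (means of 0.341 and 8.84 TPM) and Cd209a (0.149 and 2.72 TPM) rose. Clec9a (2.36 and 1.56 TPM) did not pass the test, and Xcr1 (0.429 and 0.218 TPM) was too low for a test. The part of other cells in the Ccnd2 level was not tested.

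Ccnd1 was the least abundant of the D-type cyclins in every library. Its levels were 9.37, 8.02 and 10.7 TPM in GMPs, 0.605, 1.28 and 0.162 TPM in preNeu cells and 1.25, 1.54 and 0.810 TPM in matNeu cells. GMPs lie above both later groups, which overlap. It fell from GMP to preNeu cells by a log2 change of −2.67 ± 0.30 (SE; adjusted p = 3.34e-05), −2.15 relative to the median gene. The change from preNeu to matNeu cells, 0.43 ± 0.30 on the log2 scale, did not pass the test (adjusted p = 0.243).

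**Figure D1:**
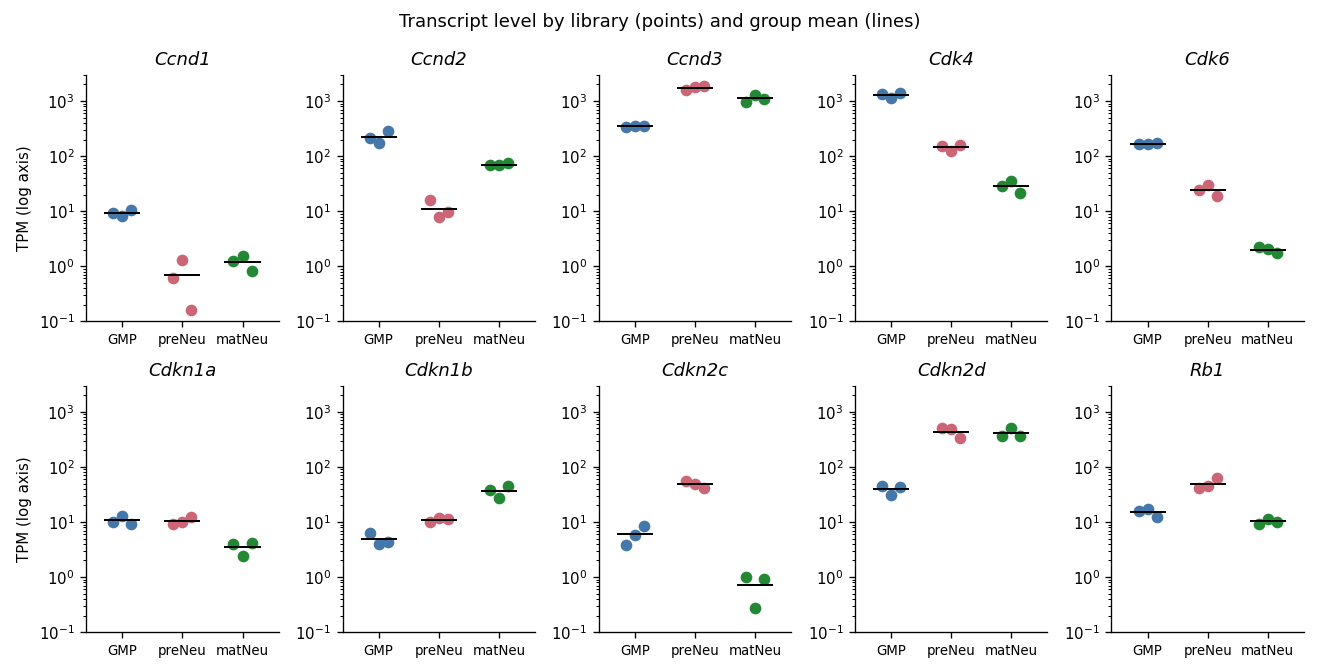
TPM of the 10 genes on a log axis, with 1 point per library (3 per cell type) and a line at the group mean. Cdk4 and Cdk6 step down at both transitions, Cdkn1b steps up at both, and Cdkn2c and Rb1 are highest in preNeu cells.

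Both kinases fell at each step, and between GMP and matNeu cells they fell further than the other 8 genes. Cdk4 had 1351, 1157 and 1401 TPM in GMPs, 152, 121 and 160 TPM in preNeu cells and 28.1, 34.9 and 21.5 TPM in matNeu cells. Cdk6 had 168, 164 and 170 TPM in GMPs, 24.5, 30.5 and 18.7 TPM in preNeu cells and 2.19, 2.02 and 1.74 TPM in matNeu cells. For both kinases the 3 groups are fully separated and ordered, with GMPs at the top. The mean of Cdk4 was 9.01-fold lower in preNeu cells than in GMPs and 46.2-fold lower in matNeu cells. The mean of Cdk6 was 6.82-fold and 84.3-fold lower.

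On the log2 scale Cdk4 changed by −3.17 ± 0.18 (SE; adjusted p = 3.05e-07) from GMP to preNeu cells and by −2.34 ± 0.18 (adjusted p = 8.99e-07) from preNeu to matNeu cells. Relative to the median gene these changes were −2.65 and −2.02. Cdk6 changed by −2.75 ± 0.20 (adjusted p = 1.47e-06) and then by −3.07 ± 0.20 (adjusted p = 2.13e-07), or −2.23 and −2.76 relative to the median gene. Over the same cells 6 basophil, mast cell and eosinophil markers went from a summed 1362 to 1574 TPM in GMPs down to 328 to 506 TPM in preNeu libraries and 1.73 to 13.0 TPM in matNeu libraries. From GMP to preNeu cells 4 of the 6 fell, while Prss34 (means of 149 and 274 TPM) and Mcpt8 (97.3 and 76.4 TPM) did not pass the test. All 6 passed the test as lower in matNeu cells than in GMPs, Epx was listed at 0 in the 3 matNeu libraries, and the part of such cells in the kinase levels was not tested. The end of Cdk4 overlaps Tspan31 on the other strand, which had means of 224, 24.6 and 2.25 TPM in GMP, preNeu and matNeu cells. The libraries were made with a stranded kit, but whether the strand was used in counting is not given in the sources used here, so reads in the shared stretch may not be told apart.

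The Cip/Kip inhibitors moved in different directions. Cdkn1b (p27) rose at each step, with 6.19, 4.02 and 4.25 TPM in GMPs, 10.1, 11.6 and 11.4 TPM in preNeu cells and 37.5, 26.9 and 44.6 TPM in matNeu cells. No groups overlap. The log2 change was 1.07 ± 0.24 (SE; adjusted p = 0.00317) at the first step and 1.60 ± 0.24 (adjusted p = 1.65e-04) at the second, or 1.59 and 1.92 relative to the median gene. The mean in matNeu cells was 7.54-fold that in GMPs. Of the 4 B cell markers above, Cd79a and Ms4a1 also rose at both steps, Cd79b fell at the first, and Pax5 passed the test at neither. The part of other cells in the Cdkn1b level was not tested.

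Cdkn1a (p21), the inhibitor best known as a target of p53, had 10.2, 12.7 and 9.33 TPM in GMPs, 9.29, 9.87 and 12.2 TPM in preNeu cells and 4.03, 2.42 and 4.23 TPM in matNeu cells. GMP and preNeu libraries overlap, and the matNeu libraries lie below both. The first step gave a log2 change of −0.03 ± 0.25 (SE; adjusted p = 0.926). The second gave −1.34 ± 0.25 (adjusted p = 8.04e-04), −1.03 relative to the median gene, and lost its call under quantile normalization (−0.56, adjusted p = 0.0638). Against GMPs, matNeu cells had a log2 change of −1.38 ± 0.25 (adjusted p = 4.67e-04) that was −0.45 relative to the median gene and 0.06 under quantile normalization (adjusted p = 0.823). Trp53, the gene of p53, fell from 378 ± 9.06 TPM (SD, n = 3) in GMPs to 79.7 ± 9.02 TPM in preNeu and 12.5 ± 0.982 TPM in matNeu cells.

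Both INK4 genes rose from GMP to preNeu cells and then parted. Cdkn2c (p18) was a gene of preNeu cells, with 56.5, 48.3 and 41.4 TPM there against 3.81, 5.82 and 8.47 TPM in GMPs and 1.00, 0.277 and 0.920 TPM in matNeu cells. The groups do not overlap, and the preNeu mean was 8.08-fold that of GMPs and 66.5-fold that of matNeu cells. The log2 changes were 2.87 ± 0.30 (SE; adjusted p = 2.17e-05) and −4.86 ± 0.30 (adjusted p = 1.94e-07), or 3.39 and −4.54 relative to the median gene. The second was the largest step down of the 10 genes between preNeu and matNeu cells. Of 6 macrophage and monocyte markers, 3 moved the same way, rising to preNeu cells and falling after. Vcam1 had means of 24.9, 186 and 9.81 TPM in GMP, preNeu and matNeu cells, C1qa 1.42, 24.9 and 6.68 TPM, and C1qb 1.37, 37.5 and 6.83 TPM. Ccr2 and Cx3cr1 fell to preNeu cells, Adgre1 did not pass the test there, and the 6 markers summed to 178 to 219, 221 to 319 and 94.7 to 133 TPM. The part of such cells in the preNeu levels of Cdkn2c, and of Rb1 below, was not tested.

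Cdkn2d (p19) had 45.6, 30.8 and 43.7 TPM in GMPs, 505, 480 and 333 TPM in preNeu cells and 363, 510 and 359 TPM in matNeu cells. GMPs lie below both later groups, which overlap. The rise to preNeu cells had a log2 change of 3.42 ± 0.21 (SE; adjusted p = 5.66e-07), 3.94 relative to the median gene, and the next step one of −0.09 ± 0.21 that did not pass the test (adjusted p = 0.726). In matNeu cells, with a mean 10.3-fold that of GMPs, Cdkn2d was by TPM the most abundant of the 4 inhibitors in every library.

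Rb1, the substrate of the kinases and the gene of the retinoblastoma protein, had 16.0, 17.5 and 12.2 TPM in GMPs, 42.3, 45.0 and 62.2 TPM in preNeu cells and 9.31, 11.5 and 10.05 TPM in matNeu cells. The preNeu libraries lie above all others. The log2 change was 1.64 ± 0.21 (SE; adjusted p = 8.01e-05) from GMP to preNeu cells and −2.15 ± 0.21 (adjusted p = 6.24e-06) from preNeu to matNeu cells, or 2.16 and −1.84 relative to the median gene. Between matNeu cells and GMPs, −0.51 ± 0.21 barely passed the test (adjusted p = 0.0464), lay 0.41 above the median gene, and became 0.88 under quantile normalization (adjusted p = 0.00291), so its direction depends on the scaling. Its call was also lost without GMP library 1 or 2, preNeu library 1 or 2, or matNeu library 1 or 3 (adjusted p of 0.0513 to 0.146). The expression table classes the Rb1 transcript as processed rather than protein-coding, and Rcbtb2 and Lpar6 overlap Rb1 on the other strand.

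**Figure D2:**
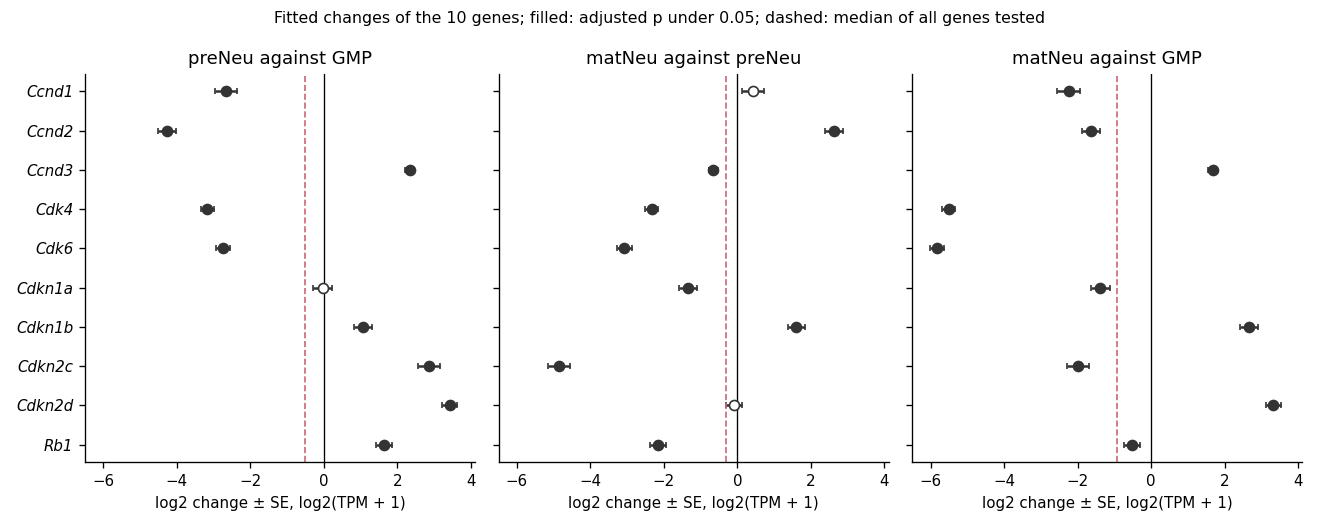
Fitted log2 change of each gene on log2(TPM + 1) in the 3 comparisons, with bars of 1 SE, filled points for an adjusted p under 0.05 and a dashed line at the median of the 13061 genes tested. Cdkn1a in the first panel and Ccnd1 and Cdkn2d in the second did not pass the test, and Rb1 and Cdkn1a in the third turn to above 0 under quantile normalization.

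Of the 10 genes, 5 rose and 4 fell from GMP to preNeu cells, where 14.7% of all tested genes rose and 44.3% fell. From preNeu to matNeu cells 2 rose and 6 fell (22.9% and 39.8% of all tested genes), and between matNeu cells and GMPs 3 were higher and 7 lower (22.8% and 54.1%). The groups did not overlap for 9, 8 and 10 of the 10 genes, against 65.5%, 66.6% and 78.6% of all genes. The split of calls over all genes depends on the scaling. Of the genes called between preNeu cells and GMPs, 25.0% were higher in the fit used here, 40.9% after rescaling without the 100 most abundant genes and 48.1% after quantile normalization. For matNeu against preNeu cells the share was 36.5%, and 50.3% after quantile normalization, and for matNeu cells against GMPs 29.6% and 50.2%.

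Set side by side on the TPM scale, kinase and inhibitor transcripts exchanged places. Cdk4 and Cdk6 summed to 1470 ± 132 TPM (SD, n = 3) in GMPs, 169 ± 15.05 TPM in preNeu cells and 30.2 ± 6.87 TPM in matNeu cells. The 4 inhibitors summed to 61.6 ± 7.18, 509 ± 97.9 and 451 ± 76.6 TPM. Kinase transcripts thus outnumbered inhibitor transcripts 23.9 to 1 in GMPs, and inhibitor transcripts outnumbered kinase transcripts 3.04 to 1 in preNeu cells, then 15.2 to 1 in matNeu cells. Cdkn2d made up 64.5 ± 6.05% of the inhibitor sum in GMPs, 86.0 ± 2.00% in preNeu and 90.6 ± 3.49% in matNeu cells.

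The D-type cyclin sum did not follow the kinases, with 580 ± 57.5 TPM (SD, n = 3) in GMPs, 1773 ± 131 TPM in preNeu cells and 1199 ± 172 TPM in matNeu cells. Ccnd3 held 60.3 ± 5.63% of it in GMPs, 99.3 ± 0.284% in preNeu and 93.9 ± 0.888% in matNeu cells. Ccnd2 held 38.1 ± 5.55%, 0.631 ± 0.288% and 5.96 ± 0.890%. The share of Ccnd3 was higher in each matNeu than in each GMP library (two-sided exact permutation test, p = 0.1, the smallest that 3 against 3 libraries can give).

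**Figure D3:**
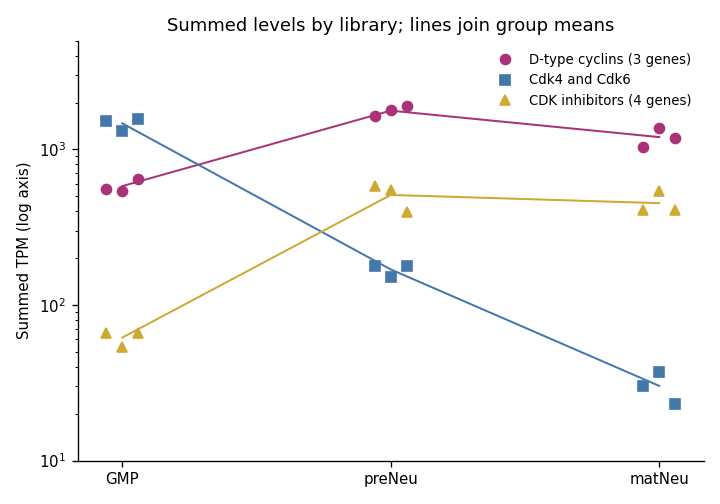
Summed TPM of the D-type cyclins, of Cdk4 and Cdk6, and of the 4 CDK inhibitors on a log axis, with 1 point per library and lines joining group means. The kinase sum lies above the inhibitor sum in the GMP libraries and below it in the preNeu and matNeu libraries.

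The rest of the pathway was followed in 5 lists with 54 genes, of which 49 were tested. From GMP to preNeu cells 17 rose and 20 fell, where 14.7% of all tested genes rose and 44.3% fell. From preNeu to matNeu cells 2 rose and 42 fell, where 22.9% of all tested genes rose and 39.8% fell. The 3 other CDK inhibitors did not reach the level needed for a test. Cdkn1c (p57), Cdkn2a (p16 and p19ARF) and Cdkn2b (p15) together had at most 0.153 TPM in GMP, 0.657 TPM in preNeu and 1.37 TPM in matNeu libraries.

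Genes of the later cycle stayed up in preNeu cells while Cdk4 and Cdk6 were already down. Their list holds cyclins and CDKs, and also Cdc25 and Cks genes, which are neither. Of 12 tested, 9 rose and none fell from GMP to preNeu cells (median log2 change 0.88, against −0.52 over all genes), and 12 of 12 fell to matNeu cells (median −5.40, against −0.32). At the first step Ccne1, Ccne2 and Cks1b did not pass the test. Over all tested genes 14.7% rose and 44.3% fell at the first step, and 39.8% fell at the second. Cdk1, the kinase of mitosis, had 369 ± 55.6 TPM (SD, n = 3) in GMPs, 659 ± 56.1 TPM in preNeu cells and 0.548 ± 0.500 TPM in matNeu cells. Its partner Ccnb1 had 226 ± 8.96, 441 ± 60.9 and 0.785 ± 0.940 TPM. Ccna2, cyclin A of S and G2 phase, had 235 ± 33.5, 519 ± 37.1 and 1.72 ± 1.16 TPM. All 3 were higher in preNeu cells than in GMPs (adjusted p = 0.00959, 0.0154 and 0.00692) and lowest in matNeu cells.

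The list of S phase genes, 16 genes taken as E2F targets or as genes of proliferating cells, gave a different picture in preNeu cells. Against GMPs 2 rose (Mki67 and Top2a), 10 fell and 4 did not pass the test (median −1.02, against −0.52 over all genes). Over all tested genes 14.7% rose and 44.3% fell. In matNeu cells all 16 were lower than in preNeu cells (median −5.28) and lower than in GMPs (median −5.85). Over all tested genes 39.8% and 54.1% were lower in these comparisons, with medians of −0.32 and −0.92. The helicase subunits Mcm3, Mcm5 and Mcm6, which unwind DNA at the replication fork, had 539 ± 61.9, 542 ± 38.9 and 752 ± 59.2 TPM (SD, n = 3) in GMPs and 192 ± 13.2, 288 ± 17.3 and 243 ± 27.0 TPM in preNeu cells. In matNeu cells they were at 0.469 ± 0.686, 1.65 ± 1.32 and 4.10 ± 2.17 TPM.

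Of the 12 E2F and pocket protein genes, 4 rose, 3 fell and 5 did not pass the test from GMP to preNeu cells, where 14.7% of all tested genes rose and 44.3% fell. In matNeu cells 1 was higher and 10 lower than in GMPs (median −2.16, against −0.92 over all genes). Over all tested genes 22.8% were higher and 54.1% lower there. Rbl1, the gene of the RB1 relative p107, had 56.9 ± 16.5, 83.8 ± 13.3 and 2.06 ± 0.382 TPM (SD, n = 3) in GMP, preNeu and matNeu cells. Tfdp2, a partner of E2F factors, fell from 28.6 ± 12.3 to 9.70 ± 1.75 and 0.826 ± 0.822 TPM. E2f6, a repressive E2F, fell from 16.6 ± 0.608 to 7.23 ± 1.61 and 0.238 ± 0.213 TPM. The member that was higher in matNeu cells was E2f2, named here after its value was seen, with means of 4.79, 67.3 and 79.2 TPM.

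Among 9 tested upstream regulators, 2 rose and 7 fell from GMP to preNeu cells, and 3 were higher and 5 lower in matNeu cells than in GMPs. Their median log2 changes were −0.99 and −2.03, against −0.52 and −0.92 over all genes, where 14.7% rose and 44.3% fell in the first comparison and 22.8% were higher and 54.1% lower in the other. Skp2, the ubiquitin ligase subunit that marks p27 for breakdown, fell from 39.9 ± 1.94 TPM (SD, n = 3) in GMPs to 20.0 ± 5.58 TPM in preNeu and 0.268 ± 0.332 TPM in matNeu cells. Its fall at each step (adjusted p = 0.00856 and 2.95e-07) ran beside the rise of the Cdkn1b transcript, and a link between them was not tested. Mnat1, a subunit of the CDK-activating kinase, fell from 25.7 ± 3.33 to 6.49 ± 1.47 and 0.176 ± 0.237 TPM.

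**Figure D4:**
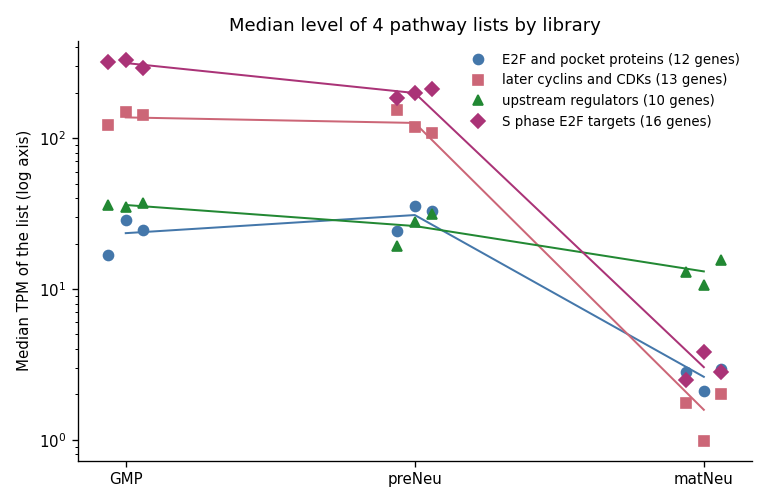
Median TPM of 4 pathway lists on a log axis, with 1 point per library and lines joining group means. The lists of later cyclins and of S phase genes have medians above 100 TPM in the GMP and preNeu libraries and below 4 TPM in the matNeu libraries.

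For each of the 10 genes the gene with the most similar profile was found by Pearson's r of log2(TPM + 1) over the 9 libraries, which fall into 3 groups and so rate mainly the pattern of group means. Cdk4 was most like Apex1 (r = 0.998) and Cdk6 most like Stoml2 (r = 0.998), and both had many near neighbours, with 1682 and 2038 genes at an r above 0.95. Few genes ran with Ccnd2, which was most like Ly6e (r = 0.984) and had 38 such genes, and with Rb1, which was most like Man1c1 (r = 0.987) and had 68. Cdkn2c was most like Olr1 (r = 0.988), Cdkn2d like Trem3 (r = 0.996), Ccnd3 like Adpgk (r = 0.996), Cdkn1b like Orai2 (r = 0.992), Cdkn1a like Fip1l1 (r = 0.997) and Ccnd1 like Mvb12a (r = 0.994).

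CHD4 peaks were concentrated at 2 long genes. Within 10 kb of the gene, in GRCm38 coordinates and GENCODE M21 genes, the list of WT GMPs held 33 peaks at Cdk6 (chr5:3341485-3531008), 18 at Rb1 (chr14:73183673-73325822) and 2 at Cdkn2c (chr4:109660876-109667189). It held none at the other 7 genes, Ccnd3 with its 94.6 kb among them. A peak within 10 kb was found for 32.5% of all 21911 protein-coding genes in WT GMPs and for 10.2% in Gfi1-/- GMPs. Of 1234 protein-coding genes within 1.5-fold of the length of Cdk6, 426 had no peak, the median was 2 peaks, and 10 had 33 or more, Cdk6 among them. For Rb1, 80 of 1730 genes of like length had 18 peaks or more.

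At Cdk6, 32 of the 33 peaks lay in introns and 1 upstream, with a median fold enrichment of 6.80 over background (range 3.65 to 29.2). No peak lay within 1 kb of the start of Cdk6 or Rb1. The strongest, at chr5:3461445-3461914 and 120.2 kb inside the gene, had a fold enrichment of 29.2. At Rb1, 12 peaks lay in introns, 2 over exons and 4 outside the gene, with a median fold enrichment of 9.55. The strongest, chr14:73222174-73223078 in an intron 103.1 kb from the start, had a fold enrichment of 43.8. Of the Rb1 peaks, 6 lay in Rcbtb2 or Lpar6, and those of them downstream of Rb1 lay in Rcbtb2 alone. Rcbtb2 had means of 59.9, 72.0 and 19.2 TPM in GMP, preNeu and matNeu cells. Lpar6 fell from 20.3 ± 4.08 TPM (SD, n = 3) in GMPs to 3.83 ± 0.902 TPM in preNeu cells, where Rb1 rose. At Cdkn2c the stronger peak, chr4:109657075-109657466, lay downstream with a fold enrichment of 6.33, and the other, chr4:109666697-109666980 with 4.99, covered the promoter.

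In Gfi1-/- GMPs the list held 5 peaks at Cdk6, 7 at Rb1 and none at Cdkn2c. Of the WT peaks, 5 of 33 at Cdk6 (15.2%), 6 of 18 at Rb1 (33.3%) and 0 of 2 at Cdkn2c were overlapped by a Gfi1-/- peak, against 18.5% of all WT peaks. The Gfi1-/- list is shorter as a whole, 7252 peaks against 35728 on the assembled chromosomes, and read depth is unknown. The paper counts far fewer CHD4 peaks in WT GMPs. It describes sites with CHD4 alone as largely unchanged without GFI1, so the shares given here cannot be set against its own. The overlapped peaks were the strong ones, with a median WT fold enrichment of 20.2 against 6.18 for the others at Cdk6 and of 36.0 against 5.65 at Rb1. The Gfi1-/- peaks of Cdk6 were chr5:3377351-3377537, chr5:3420252-3420678, chr5:3461507-3461814, chr5:3463159-3463397 and chr5:3497619-3497768, with fold enrichments of 8.32, 6.19, 9.31, 6.30 and 4.48. Those of Rb1 had fold enrichments of 5.88 to 14.6, with chr14:73222388-73222920 the strongest, at the site of the strongest WT peak. The others were chr14:73175854-73176221, chr14:73227158-73227377, chr14:73234548-73234886, chr14:73237782-73238240, chr14:73238576-73239199 and chr14:73257414-73257619. Among WT peaks of a fold enrichment of 10 or more, a limit set after the values were seen, 11 of 17 at these genes (64.7%) and 48.7% of all were overlapped.

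The sequences below are the 201 bases around the WT summit (GRCm38, plus strand) of the strongest peak that was overlapped in Gfi1-/- GMPs and of the strongest that was not, at Cdk6 and Rb1, and of the downstream peak of Cdkn2c. They show what DNA lay under CHD4 where it was called in both genotypes and where it was called in WT GMPs alone. The Rb1 window that was not overlapped lies downstream of Rb1 and inside Rcbtb2. Capitals mark AAATCA (which holds the core of GFI1 sites), GAGGAAGT (SPI1), TGTGGT (RUNX) and TTGCNNAA (C/EBP), searched on both strands.
Cdk6, overlapped, chr5:3461595-3461795: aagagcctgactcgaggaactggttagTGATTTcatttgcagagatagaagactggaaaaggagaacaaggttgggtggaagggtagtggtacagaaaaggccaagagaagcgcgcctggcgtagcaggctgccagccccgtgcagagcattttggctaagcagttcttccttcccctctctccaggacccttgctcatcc
Cdk6, not overlapped, chr5:3460946-3461146: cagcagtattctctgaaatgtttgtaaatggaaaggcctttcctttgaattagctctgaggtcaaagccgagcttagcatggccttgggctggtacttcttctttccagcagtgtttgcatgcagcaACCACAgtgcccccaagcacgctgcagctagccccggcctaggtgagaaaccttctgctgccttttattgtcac
Rb1, overlapped, chr14:73222644-73222844: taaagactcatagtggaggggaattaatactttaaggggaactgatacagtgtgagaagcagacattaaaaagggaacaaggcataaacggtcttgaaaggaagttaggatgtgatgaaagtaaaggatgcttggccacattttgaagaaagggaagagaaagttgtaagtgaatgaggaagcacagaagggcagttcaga
Rb1, not overlapped, chr14:73173824-73174024: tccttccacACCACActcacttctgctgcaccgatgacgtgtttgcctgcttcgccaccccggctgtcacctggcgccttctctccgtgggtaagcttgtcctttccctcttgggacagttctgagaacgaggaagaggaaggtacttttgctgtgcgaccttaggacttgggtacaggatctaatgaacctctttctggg
Cdkn2c, not overlapped, chr4:109657119-109657319: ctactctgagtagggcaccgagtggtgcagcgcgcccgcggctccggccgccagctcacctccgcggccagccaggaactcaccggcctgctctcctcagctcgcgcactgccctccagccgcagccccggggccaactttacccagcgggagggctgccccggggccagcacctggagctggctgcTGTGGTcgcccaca
The overlapped Cdk6 window holds AAATCA once, read on the minus strand, and the 3 printed windows that were not overlapped hold TGTGGT once each. The Rb1 window with the highest fold enrichment holds no match. The window of the other Cdkn2c peak, at the promoter, was not overlapped either, is not printed and holds no match. Over the 53 windows at these genes AAATCA was in 13.2%, GAGGAAGT in 7.55%, TGTGGT in 32.1% and TTGCNNAA in 15.1%, against 12.1%, 11.8%, 24.0% and 17.3% of all 35728 windows. AAATCA was in 3 of 11 overlapped and 4 of 42 other windows, GAGGAAGT in 1 and 3, TGTGGT in 5 and 12, and TTGCNNAA in 2 and 6. This split was not made over all 35728 windows. All 11 overlapped peaks had a WT fold enrichment of 10 or more, so overlap and peak strength cannot be told apart here.

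**Figure D5:**
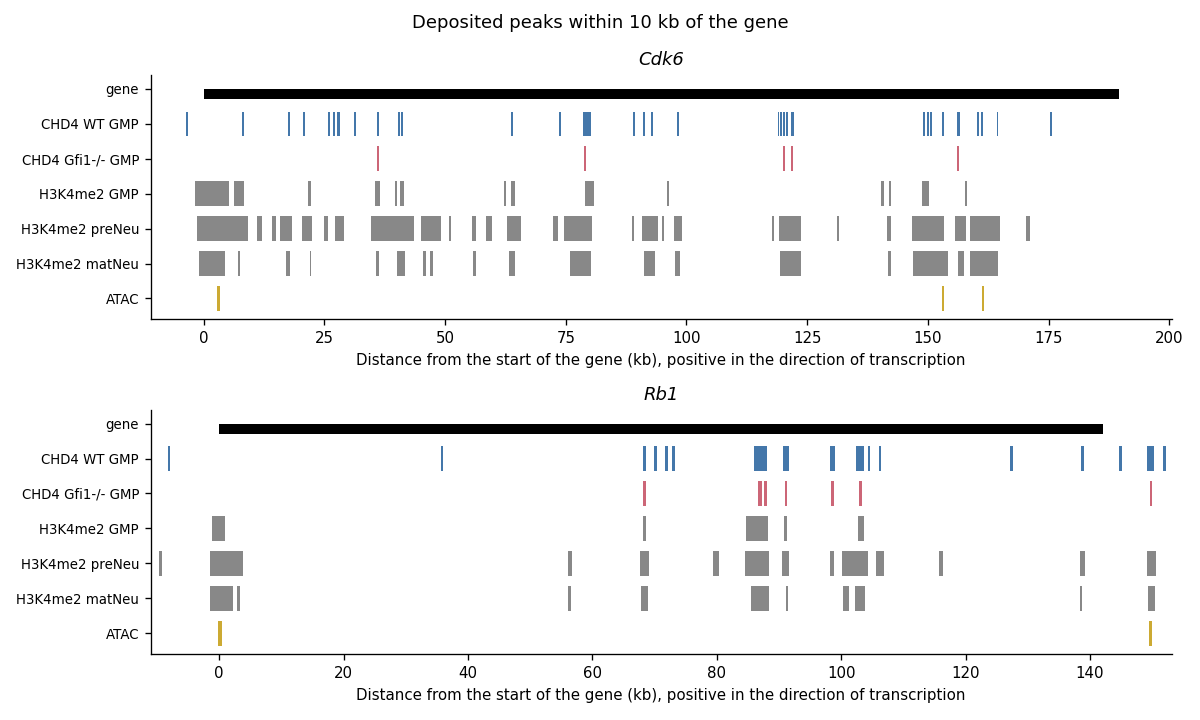
Peaks of 6 lists within 10 kb of Cdk6 and Rb1, drawn as boxes against the distance from the start of the gene in kb (peaks under 0.4 kb are widened to be seen). CHD4 peaks lie away from the start in both genes, and H3K4me2 boxes cover more of Cdk6 in the preNeu list than in the GMP or matNeu list.

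H3K4me2 lay at all 10 genes at each stage, where 73.6% of protein-coding genes had a peak within 10 kb in GMPs, 74.1% in preNeu and 72.1% in matNeu cells. The 3 lists differ in covered length, with 49.8, 97.9 and 80.3 Mb, and in fold enrichment, with medians of 2.89, 4.55 and 3.78, so a peak is given with its percentile within its own list. Cdkn2d had no H3K4me2 peak over its starts in GMPs, where its transcript was lower than later, at 30.8 to 45.6 TPM. That level was still above those of Cdkn1a, Cdkn1b and Cdkn2c, which each had a start peak in GMPs. Over its starts Cdkn2d had a peak with a fold enrichment of 16.2 in preNeu (percentile 99.4) and 11.1 in matNeu cells (percentile 96.6), where its transcript was higher. Ccnd1 went the other way. A peak of 5997 bp covered its start in GMPs (fold enrichment 3.87, percentile 87.8), one of 832 bp in preNeu cells (2.56, percentile 5.68), and none in matNeu cells.

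The other 8 genes had a peak over the start in each list. In the GMP list those of Cdk4, Cdk6, Cdkn2c and Rb1 were weak, with a −log10 q of 4.92, 4.36, 4.52 and 4.21, and would be lost at a limit of 5. Cdk6 had a start peak of percentile 74.6 in GMPs (fold enrichment 3.47), 94.1 in preNeu (12.2) and 99.9 in matNeu cells (16.1), the stage with about 2 TPM of its transcript. Cdk4 had percentiles of 77.1, 97.2 and 94.3 (3.53, 13.5 and 10.2), again as its transcript fell. Ccnd3, whose transcript rose, had 92.2, 94.98 and 93.2 (4.09, 12.5 and 9.94), and Ccnd2 had 93.4, 81.9 and 76.9 (4.17, 9.49 and 7.06). Cdkn2c had 79.2, 93.7 and 98.0 (3.59, 12.0 and 12.0) although its transcript was near 1 TPM or lower in matNeu cells. Cdkn1b had 93.0, 98.0 and 87.2 (4.14, 14.2 and 8.68), and Rb1 had 74.7, 75.3 and 84.7 (3.47, 8.22 and 8.28). Cdkn1a had 96.1, 99.0 and 89.7 (4.42, 15.4 and 9.13), with 2 of its 4 annotated starts covered at each stage.

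Inside Cdk6 the mark covered 8.61% of the window in GMPs, 34.8% in preNeu and 18.6% in matNeu cells, with mean fold enrichments of the peaks of 2.597, 5.12 and 4.73. Of its 33 CHD4 sites, 24.2% overlapped H3K4me2 in GMPs, 84.8% in preNeu and 63.6% in matNeu cells, against 37.8%, 59.6% and 52.5% of all CHD4 sites. For the 18 sites of Rb1 the shares were 22.2%, 55.6% and 38.9%. The window of Rb1 was covered to 4.61%, 14.1% and 7.80%. Both genes thus had more of the mark in preNeu cells than before or after, in lists that also differ in total length, while the transcript of Rb1 peaked and that of Cdk6 was falling.

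The ATAC-seq lists labelled preNeu and matNeu held identical values and were read as 1 list, whose stage is not settled. It had a peak within 10 kb of 9 of the 10 genes, against 52.9% of protein-coding genes, and none at Ccnd1. The strongest peaks were at Cdkn2c, with a fold enrichment of 7.49, and Ccnd3, with 6.75. Peaks covered an annotated start of Ccnd3, Cdk6, Cdkn1b, Cdkn2d and Rb1. The Cdk4 and Cdkn2d windows also hold other genes, as do those of Ccnd1, Ccnd3, Cdkn2c and Rb1, so a peak there may belong to a neighbour.

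Promoter sequences of 300 bases, most of them before the start, were matched by symbol in the RefSeq table of GRCm38.p6 for 7 of the 10 genes, with 10 starts. Those of Cdk4, which fell most with Cdk6, and of Cdkn2c and Cdkn2d, which rose to preNeu cells, are printed in the direction of transcription, to show what they share. Capitals mark GGGCGG (a GC box, the site of SP factors) and CACGTG (an E-box, bound by MYC among others), the latter chosen after the sequences were seen. Both were searched on both strands, as were the E2F sites TTTCCCGC, TTTCGCGC, TTTGCCGC and TTTGGCGC.
Cdk4, chr10:127063285-127063584 (+): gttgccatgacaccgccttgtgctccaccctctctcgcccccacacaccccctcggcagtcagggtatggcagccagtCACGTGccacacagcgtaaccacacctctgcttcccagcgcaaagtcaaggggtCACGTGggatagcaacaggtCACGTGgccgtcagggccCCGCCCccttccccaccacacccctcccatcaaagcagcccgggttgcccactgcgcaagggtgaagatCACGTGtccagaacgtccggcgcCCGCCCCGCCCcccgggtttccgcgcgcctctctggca
Cdkn2c, chr4:109666707-109667006 (-): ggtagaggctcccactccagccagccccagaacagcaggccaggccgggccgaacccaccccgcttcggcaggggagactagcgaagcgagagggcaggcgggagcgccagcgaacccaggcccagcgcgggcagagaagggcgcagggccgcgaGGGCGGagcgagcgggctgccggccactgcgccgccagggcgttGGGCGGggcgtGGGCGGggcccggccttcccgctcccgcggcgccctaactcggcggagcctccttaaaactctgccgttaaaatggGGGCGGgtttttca
Cdkn2d, chr9:21291160-21291459 (-): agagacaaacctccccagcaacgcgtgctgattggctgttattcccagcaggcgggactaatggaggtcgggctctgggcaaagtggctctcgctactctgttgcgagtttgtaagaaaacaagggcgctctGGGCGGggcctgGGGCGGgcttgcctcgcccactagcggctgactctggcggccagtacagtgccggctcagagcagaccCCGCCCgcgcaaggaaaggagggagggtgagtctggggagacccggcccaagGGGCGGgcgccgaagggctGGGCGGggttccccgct
The promoter of Cdk4 holds CACGTG at 4 places and GGGCGG at 3, and the printed INK4 promoters hold GGGCGG at 4 (Cdkn2c) and 5 places (Cdkn2d) with no CACGTG. The other Cdkn2c promoter, chr4:109665323-109665622, is not printed and holds CACGTG at 1 place and no GGGCGG. The promoter of Cdk6, chr5:3343643-3343942, is not printed either and also holds CACGTG at 1 place and no GGGCGG, unlike that of Cdk4. The CHD4 peak of WT GMPs covers 274 of the 300 bases of the printed Cdkn2c promoter. Of the 10 promoters, 7 hold GGGCGG, 3 hold CACGTG and 0 hold an E2F site in these letters, against 35.7%, 7.15% and 2.26% of the 32851 promoters in the table.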

How the data were processed

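The data used were RNA-seq libraries of sorted WT cells of 3 stages, ChIP-seq peak lists of CHD4 (GMPs, WT and Gfi1-/-) and of H3K4me2 (WT, each stage), and ATAC-seq peaks of WT neutrophil stages. The authors deposited expression as TPM per gene and library. The submitters' processing notes list FastQC 0.11.5, Trimmomatic 0.36, kallisto 0.44.0, BWA 0.7.17, MACS2 2.1.0, MultiQC 1.6 and mm10, while the study's methods name TopHat, HTSeq and DESeq, and which of these gave the TPM is not given in the sources used here. The peak lists deposited by the authors hold, for each peak of 1 library, a fold enrichment (a ratio) over background and a −log10 q-value. Their thresholds and control libraries are not given in the sources used here, and the depth behind all values is unknown.

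The 13061 genes that reached 1 TPM in 3 or more of the 9 libraries entered a test on log2(TPM + 1) by limma (version 3.58.1, R 4.3.3), a scale that understates changes of low genes, in 1 fit over the 9 libraries with a variance trend and Benjamini-Hochberg adjustment over all tested genes (adjusted p under 0.05). This was used because TPM are not counts. Groups followed the sample titles. The named genes were the 10 genes, up to 3 called genes per pathway list with the largest change between matNeu cells and GMPs, the gene most alike to each of the 10, and the strongest and start peaks. The genes and lists were chosen with earlier results of these data known, and 1 marker gene is not reported here.

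Peaks on chromosomes 1 to 19, X and Y were assigned to a gene (GENCODE M21, GRCm38) when they overlapped it or its flanks of 10 kb, and counted as overlapping from 1 bp. Sequences were read from GRCm38 and RefSeq tables with pysam 0.24.0. The H3K4me3 and GFI1 peak lists carry coordinates that are not those of GRCm38 and were not used here. The alternatives were another pseudocount, filter, scaling, variance model, sample set, call rule and replicate block, leaving out each library, and other windows, q-values and overlaps.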

Additional observations from a re-analysis of the deposited data

How the results depend on the processing

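Of the 30 gene and comparison pairs, 24 kept their direction and their side of the threshold under every alternative tried, 18 for each pair and 17 for Ccnd1, which a mean of at least 5 TPM leaves out. The exceptions were changes near 0 and those that follow the scaling. For Cdkn1a between preNeu cells and GMPs the log2 change was 0.36 after rescaling without the 100 most abundant genes, 0.62 after quantile normalization (adjusted p = 0.0506, limma), and −0.14 to 0.084 when 1 library was left out (above 0 without preNeu library 1 or GMP library 2). Between matNeu cells and GMPs quantile normalization gave 0.062 for Cdkn1a and 0.88 for Rb1. The change of Cdkn2d from preNeu to matNeu cells was −0.28 to 0.019 when 1 library was left out, above 0 without preNeu library 1. For Rb1 between matNeu cells and GMPs the call was lost in 11 of 18 alternatives, with a log2 change of −0.31 after rescaling. The call of Ccnd3 from preNeu to matNeu cells was lost when an absolute log2 change of at least 1 was asked for. The cause of these changes was not tested.

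Whether replicate numbers pair the libraries is not settled. Same-numbered libraries had correlations of −0.039 to 0.123 of their deviations, and other pairs had −0.128 to 0.071. Of 9 same-numbered pairs, 1 was over 0.1, and 6 of 9 libraries were closest to their own number. With the replicate block 9, 8 and 9 of the 10 genes were called in the 3 comparisons, the difference being Rb1 (adjusted p = 0.0680, limma), and 7652, 8142 and 10032 genes in all.

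The 182 H3K4me2 peaks at these genes over the 3 lists became 306 within 50 kb and 89 at a −log10 q of at least 5, and the 20 ATAC peaks became 31 and 9. The 65 CHD4 peaks of both lists became 58 to 84, a peak of the WT list lay within 50 kb of 7 of the 10 genes against 3 within 10 kb, and 11 WT peaks were overlapped under all 3 overlap rules. The rise in the Ccnd3 share of D-type cyclin TPM between GMPs and matNeu cells was 30.9 to 36.6 percentage points without any 1 library. Depth limits are unknown, and 3 libraries per group limit the precision.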
